A study of Mus musculus with 10 samples.

Results

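Cultured mouse adipocytes treated with the cytokine BAFF were compared with saline-treated cultures by RNA sequencing, using the 2 libraries titled BAFF and the 2 titled Saline out of 10 in the series. BAFF (B-cell activating factor, gene Tnfsf13b) is a secreted ligand of the tumour necrosis factor family, best known as a survival factor for B lymphocytes. It binds the receptors BAFF-R (Tnfrsf13c), TACI (Tnfrsf13b) and BCMA (Tnfrsf17), and the related ligand APRIL (Tnfsf13) shares the last 2 of these. BAFF-R signals mainly through the non-canonical NF-kB pathway, in which degradation of TRAF3 frees the kinase NIK (Map3k14) to drive processing of the p100 precursor (Nfkb2), while TACI and BCMA also engage the canonical pathway. White adipocytes store fat, secrete adipokines such as adiponectin and respond to inflammatory signals through the canonical pathway.

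All cultures were white adipocytes from the inguinal fat of male C57BL/6 mice aged 6 to 8 weeks, taken after digestion of the tissue and grown to confluence. They received saline, recombinant BAFF at 500 ng/ml, lipopolysaccharide (LPS, a bacterial cell wall component that activates TLR4) at 100 ng/ml or norepinephrine (the transmitter that drives lipolysis through beta-adrenergic receptors) at 1 mM, each for 24 h and with 2 libraries per group. Nothing in the labels tells whether both libraries of a group stem from different mice or dishes, and p-values here measure only the spread between libraries, which may be technical. One label field gives the treated material as adipose tissue, another as adipocytes. The LPS and norepinephrine libraries enter here to estimate the spread between replicates and to show the size of other responses.

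Each library lists 28987 genes in TPM, a relative abundance corrected for transcript length. No counts are given, so sequencing depth is unknown. In the 8 libraries used, 12857 to 13115 genes reached 1 TPM, and the listed values summed to 958126 at the lowest and 964726 at the highest. The 2 libraries labelled APRIL were left out of the fit, because 4 Y-linked genes summed to 0.489 and 0.775 TPM in them and to at least 93.8 TPM in each of the other 8, against the male label they share. Mitochondrially encoded transcripts made up 14.96% and 20.5% of the BAFF libraries, and 20.2% and 22.4% of the saline libraries. Most of this gap lay in a single gene, mt-Atp8, at 7.47% and 11.8% with BAFF and 12.4% and 13.6% with saline. The adipocyte markers Fabp4 (5164 and 6456 TPM with BAFF, 5452 and 6287 TPM with saline) and Adipoq (917 and 1097 TPM with BAFF, 925 and 1062 TPM with saline) were abundant in all 4 libraries. Plin1, which coats the lipid droplet, was low at 5.62 to 12.4 TPM. Of 10 B-lymphocyte markers in the files, 9 were under 1 TPM in all 8 libraries.

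The receptors for BAFF were close to absent. Tnfrsf13c (BAFF-R) stood at 0.177 and 0.0973 TPM with BAFF and at 0.0906 and 0.105 TPM with saline. Tnfrsf17 (BCMA) was listed at 0.0979 and 0 TPM with BAFF and at 0.0541 and 0 TPM with saline. Tnfrsf13b (TACI) measured 0.587 and 0.322 TPM with BAFF and 0.339 and 0.212 TPM with saline, so that the groups overlapped, and its highest level in the 8 libraries was 2.31 TPM in LPS replicate 1, where LPS replicate 2 held 0.224 TPM. All 3 receptors were below the level required for testing (at least 1 TPM in at least 2 of the 4 libraries). The ligands were transcribed at low levels. Tnfsf13b measured 3.88 and 2.72 TPM with BAFF and 3.20 and 2.73 TPM with saline, a difference of 0.10 on the log2(TPM + 1) scale with a 95% interval from -0.39 to 0.60. Tnfsf13 measured 1.27 and 0.591 TPM with BAFF and 1.25 and 0.484 TPM with saline, and for both ligands the groups overlapped.

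Differences between BAFF and saline were tested for 13185 genes on log2(TPM + 1) with limma's moderated test, with the spread estimated from all 8 libraries and Benjamini-Hochberg adjustment. This scale understates the change of genes with low TPM. No gene was called higher with BAFF (0%) and 2 identifiers were called lower (0.0152%) at an adjusted p under 0.05. At an unadjusted p under 0.05, 583 genes were higher (4.42%) and 78 lower (0.592%). The median difference was 0.11, with the middle 50% of genes between 0.04 and 0.17, and both BAFF libraries lay above both saline libraries for 5519 genes (41.9%) and below them for 442 (3.35%). This tilt moved with scaling: after median-ratio scaling the median over all genes was -0.00067, 154 genes had an unadjusted p under 0.05 upward and 197 downward, and the groups did not overlap for 14.9% of genes upward and 14.0% downward. With the mitochondrially encoded genes left out and the rest rescaled, the median was 0.05. The medians of lists below are to be read against 0.11, the median over all genes on the same scale.

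On the log2(TPM + 1) scale the intervals were narrow for most genes. The 95% interval of the difference lay within a factor of 2 in both directions for 11996 genes (91.0%), and within a factor of 1.5 for 9120 genes (69.2%). Both factors apply to TPM + 1, so for genes with low TPM the same interval covers a wider range of TPM. These intervals are not adjusted for the number of genes. In the same fit, 866 genes were called between BAFF and LPS (495 higher with BAFF, 3.75%, and 371 lower, 2.81%) and 627 between BAFF and norepinephrine (250 higher, 1.9%, and 377 lower, 2.86%). Those counts depended on single libraries: leaving out BAFF replicate 1 or 2 left 203 or 157 calls against LPS and 13 or 83 against norepinephrine, leaving out either saline library, which changes only the spread, left 498 and 225, leaving out LPS replicate 1 left 292 against LPS and raised those against norepinephrine to 947, and leaving out norepinephrine replicate 1 or 2 left 16 or 75 against norepinephrine. Across these genes, BAFF replicate 1 correlated more with saline replicate 1 (Pearson r = 0.989 across genes, which are not independent replicates) than with BAFF replicate 2 (r = 0.9877). BAFF replicate 2 likewise correlated more with saline replicate 2 (r = 0.9906). Below, counts of list members called against LPS are to be read against 3.75% of all genes higher with BAFF and 2.81% lower. Those against norepinephrine are to be read against 1.9% higher and 2.86% lower.

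**Figure D1:**
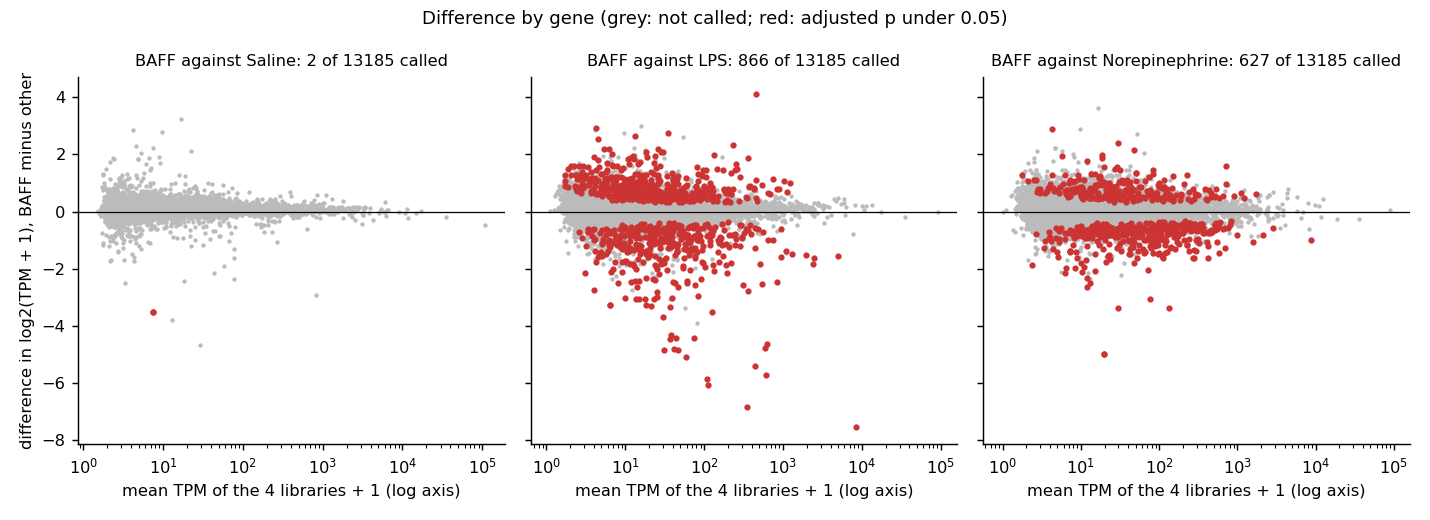
Difference in log2(TPM + 1) between BAFF and saline, LPS or norepinephrine for 13185 genes (y axis), against the mean TPM of the 4 libraries compared plus 1 (x axis, log scale); red points passed an adjusted p of 0.05. Against saline 2 identifiers with the same values passed and plot as 1 point, compared with 866 for LPS and 627 for norepinephrine.

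The 2 identifiers called lower with BAFF carried the same values in every library and cannot be told apart in these files. They are the processed pseudogene Gm7336 (chr7:51746647-51747878, plus strand, GRCm38, GENCODE M21) and ENSMUSG00000080830, which has no entry in that annotation. Both were listed at 8.2e-07 and 0.425 TPM with BAFF, 10.2 and 15.4 TPM with saline, 10.5 and 10.4 TPM with LPS, and 33.4 and 41.0 TPM with norepinephrine. The BAFF libraries were below all 6 others, and the difference from saline was -3.51 ± 0.24 (SE) on the log2(TPM + 1) scale (limma adjusted p = 0.0197). Gm7336 was also lower with BAFF than with LPS (-3.26, adjusted p = 0.00199) and than with norepinephrine (-4.99, adjusted p = 0.00121). The call against saline was lost when any 1 of the 4 compared libraries was left out (adjusted p = 0.215 and 0.101 on leaving out BAFF replicate 1 or 2, and 0.0549 and 0.0878 for saline replicate 1 or 2), without LPS replicate 1 (0.104) or 2 (0.107), with the 4 libraries alone (0.348) and with a pseudocount of 0.1 (0.244). Both identifiers were named after their values were seen.

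Gm7336 is a copy of Gapdh (chr6:125161715-125166467, minus strand), which encodes the glycolytic enzyme glyceraldehyde-3-phosphate dehydrogenase. The 1232 bases of the pseudogene matched a Gapdh transcript at 1229 positions (99.76%), and all 1002 bases of the coding sequence were identical. The first 60 coding bases of each are shown because a read from this stretch cannot be assigned to either gene; capitals mark the start codon.
Gapdh: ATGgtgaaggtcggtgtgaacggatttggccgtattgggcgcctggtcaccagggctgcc
Gm7336: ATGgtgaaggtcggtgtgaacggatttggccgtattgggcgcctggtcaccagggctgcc

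Gapdh itself measured 16.9 and 30.2 TPM with BAFF and 117 and 66.8 TPM with saline, without overlap, and the difference of -1.92 did not pass (adjusted p = 0.84). LPS gave 55.3 and 21.9 TPM and norepinephrine 43.9 and 47.2 TPM, so LPS replicate 2 fell within the range of BAFF. In the annotation, 103 other genes share long near-identical stretches with Gapdh, and 48 of these are in the files. Summed over Gapdh and its listed copies, the level was 74.3 and 78.7 TPM with BAFF, 180 and 132 TPM with saline, 128 and 91.8 TPM with LPS, and 169 and 167 TPM with norepinephrine. The summed BAFF levels were below those of the other 6 libraries, and the difference from saline was -1.003 ± 0.19 (SE), which did not pass (adjusted p = 0.84). Pseudogenes were common among large differences: of 30 genes with a mean of at least 5 TPM and a difference over 2-fold between BAFF and saline, 16 were pseudogenes (53.3%), against 3.37% of all genes at that level.

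No gene other than these identifiers passed, so the genes of smallest p are described as values. Zhx2, a zinc-finger and homeobox transcriptional repressor, measured 38.5 and 33.0 TPM with BAFF and 63.8 and 68.3 TPM with saline. The difference was -0.87 ± 0.10 (SE; adjusted p = 0.229), and here saline was the group apart: LPS gave 40.5 and 41.4 TPM and norepinephrine 39.3 and 36.5 TPM. Ryk, an atypical receptor for Wnt ligands, measured 9.68 and 8.15 TPM with BAFF and 3.22 and 2.05 TPM with saline (1.46 ± 0.21; adjusted p = 0.57). Its levels with LPS (10.1 and 6.93 TPM) and norepinephrine (9.27 and 8.75 TPM) again lay near those with BAFF and above saline. Gm14401, a gene model named after its values were seen, had the smallest p of all genes higher with BAFF, at 37.5 and 33.6 TPM against 6.28 and 8.83 TPM (adjusted p = 0.19). It shares sequence with 32 other listed genes, and its difference of 2.11 became 0.23 when these were summed.

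The other genes of small p on the higher side differed in how BAFF compared with LPS and norepinephrine. Furin, the protease that releases many secreted precursors, BAFF and APRIL among them, measured 62.2 and 63.9 TPM with BAFF, 44.4 and 47.8 TPM with saline, 66.2 and 71.0 TPM with LPS and 52.4 and 51.0 TPM with norepinephrine. Pla2g6, a calcium-independent phospholipase A2, measured 21.5 and 19.7 TPM with BAFF, 13.6 and 14.2 TPM with saline and 11.7 and 11.9 TPM with LPS; its BAFF level was higher than with LPS by 0.76 (adjusted p = 0.0062), while the difference of 0.54 from saline did not pass. Cask, a membrane-associated scaffold kinase, showed 106 and 95.9 TPM with BAFF, above all 6 other libraries (57.5 to 78.6 TPM). Frmd4a, a scaffold of cell polarity, showed 50.2 and 43.4 TPM with BAFF, again above the 6 others (19.1 to 34.1 TPM). Differences from saline of the other named genes on this side were 0.57 for the membrane-scission GTPase Dnm1, 0.56 for Bcas3, 0.48 for the Golgi adaptor Gga3, 0.35 for the galectin Lgals8 and 0.49 for Wdsub1. None passed, with adjusted p between 0.57 and 0.84 over the 10. As for Ryk, saline was below all 6 treated libraries for Furin, Dnm1, Gga3, Lgals8 and Wdsub1.

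Among genes lower with BAFF, Coq8a, which acts in coenzyme Q synthesis, measured 35.6 and 50.9 TPM with BAFF, 103 and 114 TPM with saline, 51.9 and 106 TPM with LPS, and 119 and 124 TPM with norepinephrine. Mycbp, a partner of the transcription factor MYC, measured 32.5 and 55.0 TPM with BAFF and 92.4 and 82.7 TPM with saline. Naxd, a repair enzyme for damaged NAD(P)H, measured 6.91 and 12.04 TPM with BAFF and 18.5 and 18.2 TPM with saline. For these 3 genes both BAFF libraries were below both saline libraries and the 2 BAFF libraries were themselves well apart. The differences were -0.58 for Ccdc73 and -0.41 for the magnesium transporter Slc41a2. The ribosomal protein genes Rps7 (-0.998), Rpl38 (-0.54) and Rpl23a (-0.63) have near-identical listed copies, and their differences became -0.07, -0.12 and 0.05 when the copies were summed. None of the 10 genes on this side passed, with adjusted p between 0.229 and 0.84.

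**Figure D2:**
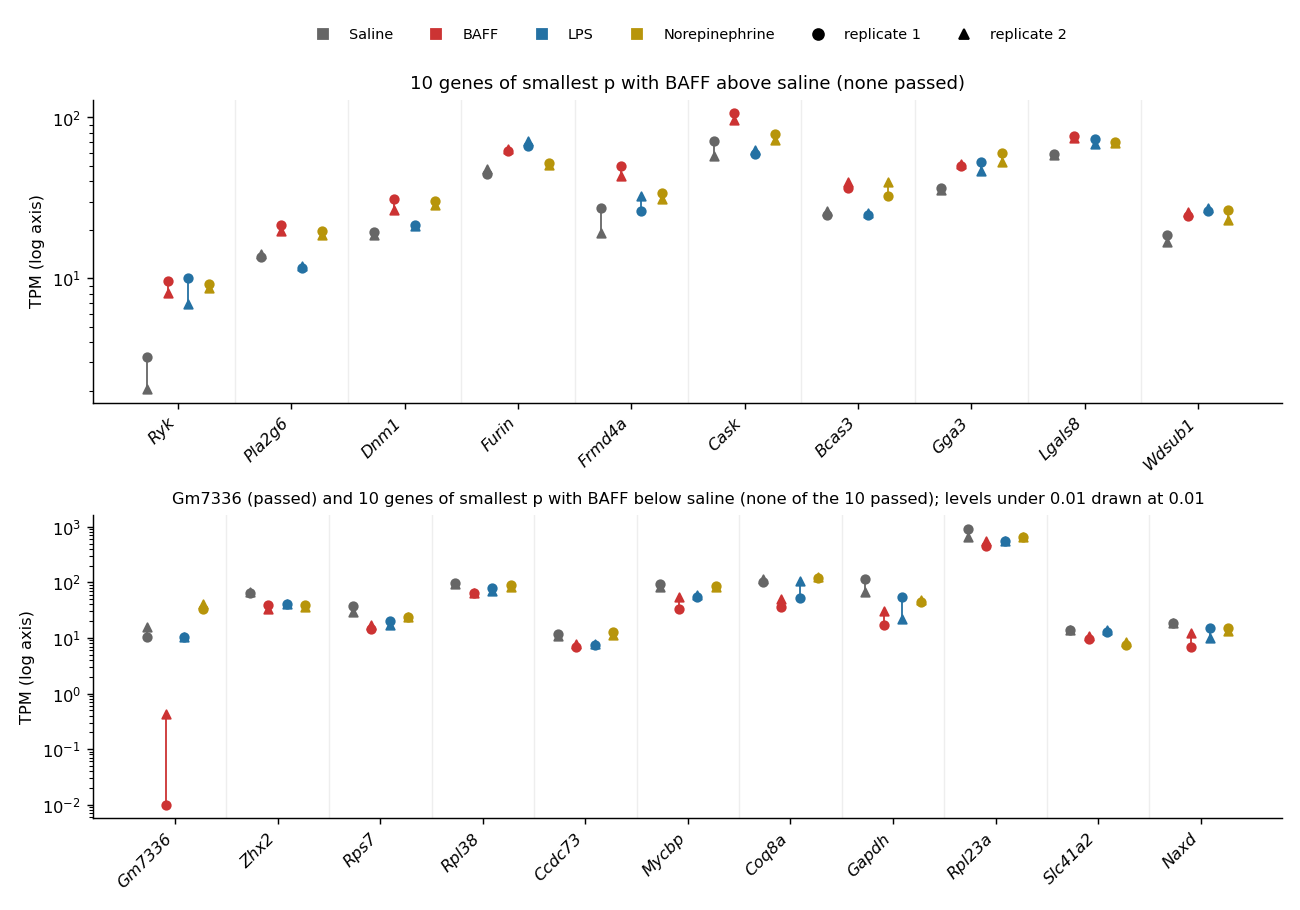
TPM in each library (y axis, log scale) of the 10 genes of smallest p with BAFF above saline (top) and of Gm7336 and the 10 genes of smallest p with BAFF below saline (bottom); circles are replicate 1, triangles replicate 2, a line joins the 2 libraries of a group, and levels under 0.01 TPM are drawn at 0.01. Saline is below all 6 treated libraries for Ryk, Dnm1, Furin, Gga3, Lgals8 and Wdsub1, and above them for Zhx2, Rps7, Rpl38, Gapdh and Naxd. BAFF is above all 6 others for Cask, Frmd4a and Lgals8, and below them for Gm7336, Rps7, Rpl38, Coq8a and Rpl23a.

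Genes of the NF-kB pathways differed little between BAFF and saline and strongly between BAFF and LPS. All 9 genes of the non-canonical pathway were tested and 0 were called against saline, with a median of 0.15 against 0.11 over all genes, and 6 of 9 were lower with BAFF than with LPS. The kinase gene Map3k14 measured 5.87 and 6.61 TPM with BAFF, 4.97 and 5.38 TPM with saline, and 3.46 and 4.28 TPM with LPS. Otud7b, a deubiquitinase that stabilises TRAF3, had the smallest p of the list at 13.2 and 13.6 TPM with BAFF and 11.4 and 10.96 TPM with saline (0.24, adjusted p = 0.84). Nfkb2, the p100 precursor and itself a target of NF-kB, measured 23.2 and 20.6 TPM with BAFF, 21.4 and 17.8 TPM with saline, and 49.4 and 45.5 TPM with LPS. The BAFF and saline groups overlapped for Nfkb2, with a difference of 0.15 and a 95% interval from -0.13 to 0.44, and BAFF was lower than LPS by -1.08 (adjusted p = 0.0055). Relb, the partner of p52, measured 16.96 and 16.1 TPM with BAFF, 16.1 and 13.1 TPM with saline and 38.0 and 35.1 TPM with LPS. Traf3, the brake on the pathway, measured 7.17 and 7.20 TPM with BAFF, and 7.26 and 6.15 TPM with saline. The intervals of all 9 genes lay within 2-fold of TPM + 1, so larger changes against saline on that scale were outside the intervals of this fit.

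The canonical pathway, the usual route of inflammatory signals, was read in the same way. Of 23 tested genes, 0 were called against saline (median 0.13) and 15 were lower with BAFF than with LPS, against 2.81% of all genes. Nfkbia, the inhibitor that NF-kB induces against itself, measured 30.1 and 25.7 TPM with BAFF, 30.4 and 20.2 TPM with saline, and 177 and 124 TPM with LPS. Tnfaip3, another induced inhibitor, measured 6.30 and 3.80 TPM with BAFF, 5.42 and 4.13 TPM with saline, and 33.3 and 25.3 TPM with LPS. The smallest p among these genes against saline was for Bcl3, a nuclear cofactor of p50 and p52, at 93.0 and 87.3 TPM with BAFF and 76.9 TPM in both saline libraries. Bcl3 did not overlap between the groups and did not pass (0.23, adjusted p = 0.84).

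Secreted mediators are among the targets of this pathway. Of 23 tested cytokines and chemokines, 0 were called against saline (median 0.07) and 12 were lower with BAFF than with LPS. The neutrophil chemokine Cxcl1 measured 2.92 and 2.49 TPM with BAFF, 2.56 and 3.26 TPM with saline, and 209 and 217 TPM with LPS. The monocyte chemokine Ccl2 measured 63.2 and 34.4 TPM with BAFF, 56.1 and 34.4 TPM with saline, and 1223 and 1164 TPM with LPS. Cx3cl1, a membrane-bound chemokine with the smallest p of the list, measured 7.78 and 9.31 TPM with BAFF and 6.13 and 6.99 TPM with saline (0.33, adjusted p = 0.84). Il6 measured 4.79 and 5.76 TPM with BAFF and 3.98 and 6.06 TPM with saline. The BAFF and saline libraries overlapped for Cxcl1, Ccl2 and Il6 and did not for Cx3cl1. Of 24 acute-phase and innate response genes, 0 were called against saline (median 0.08). With BAFF 13 were lower and 1 higher than with LPS, against 2.81% and 3.75% of all genes. Lcn2, a secreted iron-carrier binder, measured 20.2 and 23.4 TPM with BAFF, 22.6 and 23.8 TPM with saline and 1178 and 1243 TPM with LPS. Saa3, a serum amyloid protein, measured 158 and 48.3 TPM with BAFF and 165 and 45.6 TPM with saline, differing more between replicate numbers than between the groups.

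**Figure D3:**
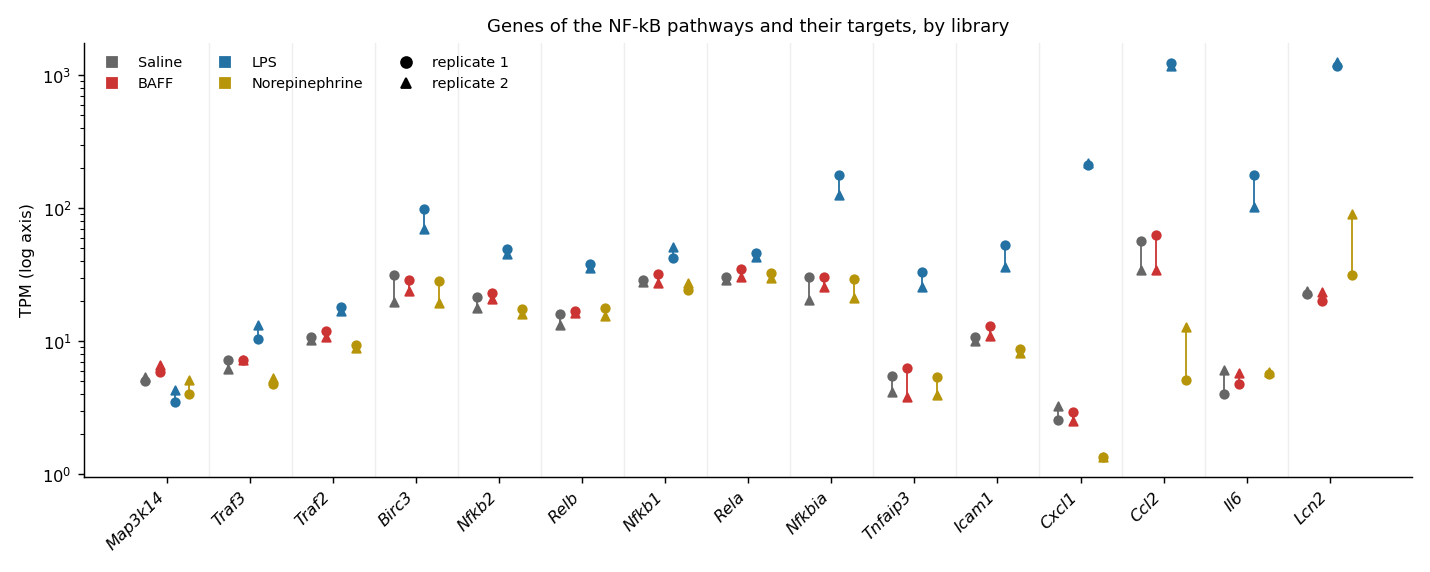
TPM in each library (y axis, log scale) for 15 genes of the NF-kB pathways and their targets (x axis); colours mark the groups, circles replicate 1 and triangles replicate 2. BAFF and saline lie close for each gene, with both BAFF libraries above both saline libraries for some, such as Map3k14 and Icam1. LPS lies above both groups for Nfkb2, Relb, Nfkbia, Tnfaip3, Icam1, Cxcl1, Ccl2, Il6 and Lcn2, and below both for Map3k14.

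The 100 bases before the transcription start of 4 of these genes are shown. Their levels differed between BAFF and LPS and not detectably between BAFF and saline. Only windows holding the letters marked below were kept, so a match in each was fixed by the choice. The sequences are from RefSeq promoters (GRCm38.p6), and capitals mark GGG followed by any 2 bases and TTTCC, a common form of the NF-kB motif, on either strand, chosen after the values were seen.
Nfkb2, chr19:46304637-46304736, plus strand: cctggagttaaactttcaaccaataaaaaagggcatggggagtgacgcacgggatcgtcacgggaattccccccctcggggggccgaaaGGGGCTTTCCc
Nfkbia, chr12:55492648-55492747, minus strand: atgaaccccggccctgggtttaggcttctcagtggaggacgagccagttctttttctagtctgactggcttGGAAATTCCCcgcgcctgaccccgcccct
Tnfaip3, chr10:19015411-19015510, minus strand: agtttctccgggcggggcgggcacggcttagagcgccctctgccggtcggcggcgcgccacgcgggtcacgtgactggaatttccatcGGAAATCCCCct
Cxcl1, chr5:90891145-90891244, plus strand: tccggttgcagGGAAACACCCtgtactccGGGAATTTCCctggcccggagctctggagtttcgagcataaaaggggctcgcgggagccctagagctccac

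The Cxcl1 window holds 2 matches. Over the window from 250 bases before to 50 after the start, these letters occur in 1.63% of 32851 promoters. Counted per gene, as for the lists, they occur for 1.98% of 9610 tested genes with a promoter. They occur for 4 of the 18 canonical pathway genes with a promoter in the table (Cyld, Nfkbia, Rel, Tnfaip3), for 3 of 7 non-canonical pathway genes (Nfkb2, Traf2, Traf3) and for 4 of 15 cytokines and chemokines (Ccl9, Csf1, Cxcl1, Il6). A match is a description of the letters and not a measured binding site.

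The interferon-stimulated genes, antiviral genes switched on by interferon signalling, had the highest median difference from saline of the lists examined. Of 31 tested, 0 were called, and the list's median was 0.33 against 0.11 over all genes, with a range from -0.42 to 1.27. Both BAFF libraries lay above both saline libraries for 21 of 31 (67.7%, against 41.9% of all genes) and below for 1. After median-ratio scaling the median was 0.23 against -0.00067 over all genes, with 19 of 31 above without overlap (61.3%, against 14.9%). Within replicate 1 alone the list's median difference was 0.33, against 0.14 over all genes, and within replicate 2 alone it was 0.34, against 0.08. The summed TPM of the list was 604 and 536 with BAFF and 459 and 396 with saline, so the groups did not overlap.

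Single interferon-stimulated genes showed the pattern at several levels of abundance. Irf7, the factor that amplifies type I interferon production, measured 28.9 and 29.8 TPM with BAFF and 16.0 and 16.5 TPM with saline. Isg15, a ubiquitin-like modifier, measured 41.1 and 37.9 TPM with BAFF and 26.1 and 20.7 TPM with saline. Ifi44 measured 4.94 and 6.16 TPM with BAFF and 2.07 and 1.39 TPM with saline. For these 3 genes the replicates of each group were closer to each other than to the other group. Oasl2, an oligoadenylate synthetase-like protein, measured 28.2 and 23.7 TPM with BAFF and 17.5 and 11.9 TPM with saline, and the synthetase Oas1a 8.59 and 5.61 TPM against 4.26 and 3.48 TPM. The viral RNA sensor Ddx58 (RIG-I) measured 27.5 and 26.9 TPM against 19.9 and 18.4 TPM. Other members did not separate. Ifit1, which binds foreign RNA, measured 11.1 and 9.32 TPM with BAFF and 11.2 and 8.54 TPM with saline, Irf1 26.4 and 25.4 TPM against 27.9 and 23.8 TPM, and the antiviral enzyme Rsad2 was on the other side at 1.45 and 1.17 TPM against 2.76 and 1.54 TPM.

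The test of these genes rested on which libraries gave the spread. Norepinephrine replicate 1 and replicate 2 differed widely for them, with Irf7 at 14.9 and 64.9 TPM, Isg15 at 10.99 and 52.3 TPM and a list sum of 396 and 859 TPM. LPS gave Irf7 at 144 and 97.0 TPM and Isg15 at 62.7 and 135 TPM. With all 8 libraries, 0 of 31 had an unadjusted p under 0.05. With the spread from the 4 compared libraries alone, 17 of 31 were higher at an unadjusted p under 0.05, against 6.97% of all genes (0 of 31 were lower, against 0.652%), and with the norepinephrine libraries left out 6 of 31 were, against 3.79% of all genes (0 of 31 were lower, against 0.622%). None passed after adjustment in any of these fits. With the 4 libraries alone the smallest adjusted p in the list was 0.41, for Irf7, whose difference was 0.81 with a 95% interval from 0.627 to 1.002, against -0.61 to 2.24 with 8 libraries. Whether the wide spread of the norepinephrine libraries applies to the other groups was not tested.

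**Figure D4:**
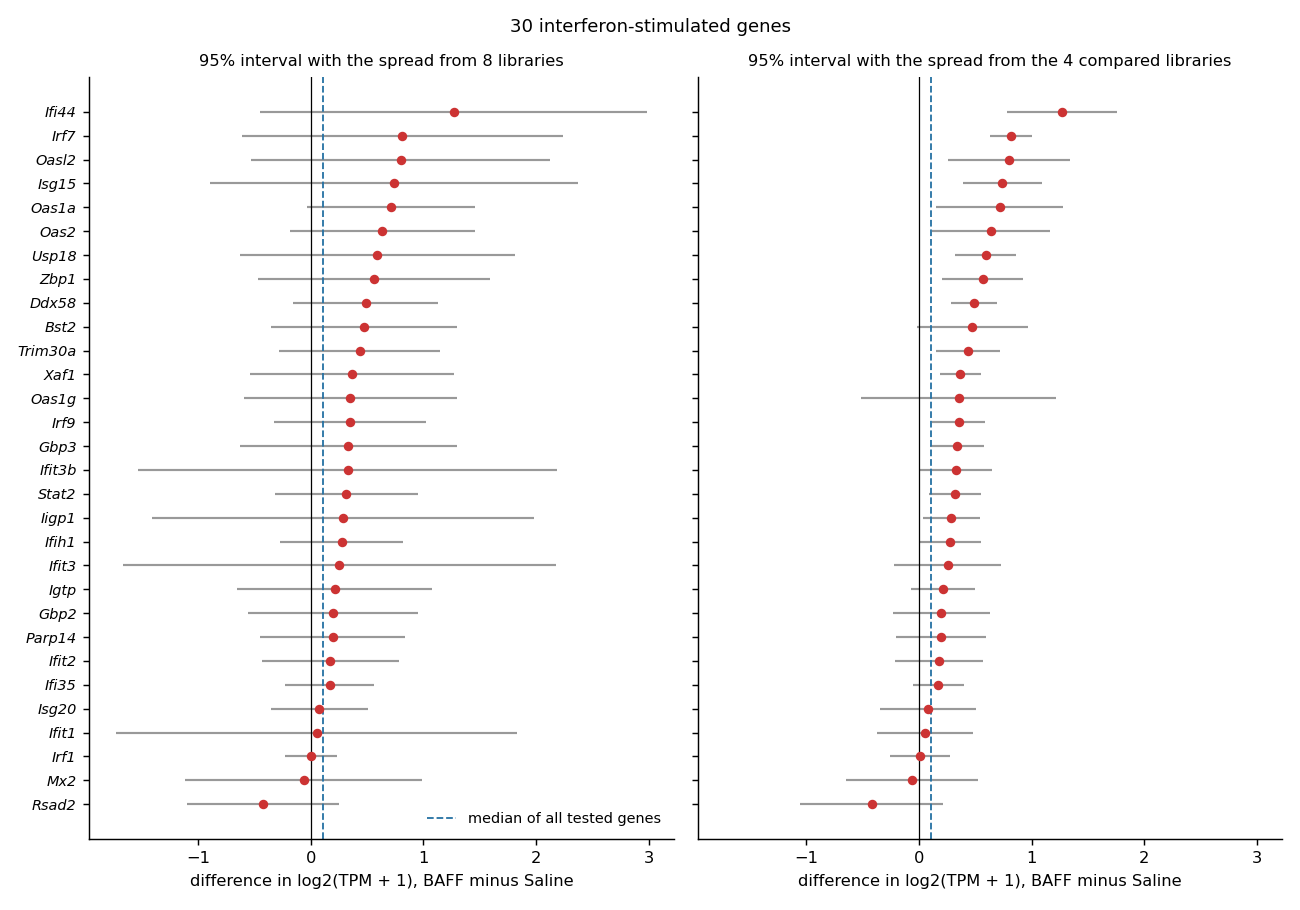
Difference in log2(TPM + 1) between BAFF and saline (x axis) with its 95% interval for 30 of the 31 interferon-stimulated genes (y axis), with the spread taken from 8 libraries (left) or from the 4 compared libraries (right); the dashed line is the median of all tested genes, 0.11. The points are the same in both panels, and the intervals of Ifi44, Irf7 and Isg15 hold 0 on the left only.

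The 100 bases before the start of 3 members are shown. More members were looked at, and only windows holding the letters marked below were kept. A match in each window was therefore fixed by the choice. BAFF and saline lay apart without overlap for Isg15 and Oas1a, and overlapped for Ifit1. Capitals mark GAAA, any 2 bases and GAAA on either strand, the core of the interferon-stimulated response element, chosen after the values were seen; matches in Isg15 and Oas1a overlap one another.
Isg15, chr4:156200819-156200918, minus strand: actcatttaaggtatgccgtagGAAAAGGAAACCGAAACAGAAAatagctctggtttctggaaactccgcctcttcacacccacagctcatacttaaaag
Oas1a, chr5:120907526-120907625, minus strand: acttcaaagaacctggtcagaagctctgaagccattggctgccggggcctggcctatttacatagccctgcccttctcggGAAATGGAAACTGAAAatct
Ifit1, chr19:34640789-34640888, plus strand: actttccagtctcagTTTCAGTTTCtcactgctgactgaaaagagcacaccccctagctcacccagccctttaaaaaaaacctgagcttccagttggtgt

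These letters occur in 3.44% of the 32851 promoters over the same windows. Counted per gene, they occur for 3.67% of 9610 tested genes with a promoter and for 15 of the 24 list members with a promoter in the table. All 3 promoters shown were kept for holding them. They therefore cannot tell whether the letters go with how far BAFF and saline lay apart.

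Genes of antigen presentation were next in median. Of 13 tested genes of class I antigen processing, 0 were called against saline (median 0.20), 5 lay above saline without overlap (38.5%, against 41.9% of all genes) and 0 below. After median-ratio scaling 1 of 13 did (7.69%, against 14.9%), so neither count exceeded the share over all genes. H2-K1, a class I heavy chain, measured 509 and 433 TPM with BAFF and 431 and 381 TPM with saline, and Tapbp, which loads peptides onto class I, 273 and 231 TPM against 217 and 191 TPM. Against LPS, 11 of these 13 genes were lower with BAFF, with H2-K1 at 1590 and 1266 TPM and B2m, the class I light chain, at 2268 and 1599 TPM with LPS against 721 and 639 TPM with BAFF.

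Genes that define adipocytes lay close to their saline levels. Of 18 tested genes for adipocyte identity and adipokines, 0 were called (median 0.04) and the intervals of 17 lay within 2-fold. Adipoq (adiponectin) differed by 0.02 with a 95% interval from -0.43 to 0.46. Slc2a4, the insulin-responsive glucose transporter GLUT4, measured 14.9 and 17.2 TPM with BAFF, 16.9 and 14.6 TPM with saline, and 3.67 and 5.04 TPM with LPS, so BAFF and saline overlapped and LPS lay apart. Against LPS, 7 of the 18 were higher with BAFF and 1 lower, compared with 3.75% and 2.81% of all genes. Car3, a carbonic anhydrase abundant in adipocytes, measured 815 and 915 TPM with BAFF, 860 and 905 TPM with saline, and 34.4 and 68.8 TPM with LPS. Of 13 adipogenic transcription factors, 0 were called (median 0.16), and Pparg, the master regulator of adipogenesis, measured 84.9 and 90.3 TPM with BAFF and 80.7 and 88.5 TPM with saline.

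Genes of lipid metabolism held no called gene against saline. For lipolysis and the lipid droplet, 0 of 18 genes were called (median 0.09), whereas 8 were higher with BAFF than with LPS and 7 lower than with norepinephrine. The hormone-sensitive lipase Lipe measured 205 and 245 TPM with BAFF, 193 and 213 TPM with saline, 122 and 143 TPM with LPS, and 340 and 367 TPM with norepinephrine. The beta3-adrenergic receptor Adrb3 measured 127 and 159 TPM with BAFF, 119 and 141 TPM with saline and 51.6 and 49.9 TPM with LPS. Pde3b, the phosphodiesterase through which insulin restrains lipolysis, had the smallest p of this list at 46.9 and 51.8 TPM with BAFF and 44.5 and 36.9 TPM with saline (0.27, adjusted p = 0.84).

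Fatty acid pathways were tested in 3 further lists. Of 25 genes for fatty acid oxidation and peroxisomes, 0 were called against saline (median 0.06, all 25 intervals within 2-fold), and 21 were lower with BAFF than with norepinephrine. Pdk4, which turns cells from glucose to fat oxidation, measured 12.9 and 17.5 TPM with BAFF, 12.4 and 15.1 TPM with saline, and 144 and 125 TPM with norepinephrine. For fatty acid uptake and re-esterification 0 of 23 were called (median 0.11), and for fatty acid synthesis 0 of 17 (median 0.12). Fasn, the fatty acid synthase, measured 344 and 422 TPM with BAFF, 338 and 347 TPM with saline, and 117 and 124 TPM with LPS. Elovl5, a fatty acid elongase with the smallest p of the synthesis list, measured 39.0 and 42.3 TPM with BAFF and 33.2 and 33.5 TPM with saline, without overlap (0.28, adjusted p = 0.84). Acsl4, which activates arachidonic acid, measured 32.8 and 34.9 TPM with BAFF and 24.3 and 25.2 TPM with saline, without overlap (0.44, adjusted p = 0.84). Of 12 thermogenic genes, 0 were called (median 0.12), and 8 of the 20 listed were below the level for testing.

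Insulin signalling and glucose use held 0 called genes of 25 (median 0.11), and glycolysis and the hypoxia response 0 of 31 (median 0.11), where Gapdh was the lowest at -1.92. Hk2, a hexokinase, measured 24.97 and 27.3 TPM with BAFF and 17.9 and 22.3 TPM with saline, and Vegfa, an angiogenic factor, 314 and 310 TPM against 278 and 262 TPM. Both did not overlap and did not pass (adjusted p = 0.84), and both had higher levels with LPS and norepinephrine than with BAFF, passing for Vegfa (-0.49 against LPS, adjusted p = 0.013, and -0.74 against norepinephrine, adjusted p = 0.0077).

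Mitochondrially encoded and nuclear-encoded genes of the respiratory chain had medians below that of all genes. Of 13 mitochondrially encoded genes, 0 were called, with a median of -0.05 against 0.11 over all genes, and 0 lay above saline without overlap. The lowest was mt-Atp8, an ATP synthase subunit, at 7.47% and 11.8% of the BAFF libraries and 12.4% and 13.6% of the saline libraries. It was the only member below saline without overlap, and most of the gap in the mitochondrial share lay in it. Of 44 nuclear-encoded respiratory chain genes, 0 were called (median 0.02), 7 lay above saline without overlap (15.9%, against 41.9% of all genes) and 6 below (13.6%, against 3.35%). After median-ratio scaling 0 lay above (against 14.9% of all genes) and 19 below (43.2%, against 14.0%). Cox4i1, a subunit of cytochrome c oxidase, measured 124 and 163 TPM with BAFF, 204 and 179 TPM with saline, and 246 and 238 TPM with norepinephrine. Of 52 cytosolic ribosomal protein genes, 0 were called (median 0.06). Without overlap, 2 lay above saline (3.85%, against 41.9% of all genes) and 6 below (11.5%, against 3.35%). After median-ratio scaling 0 of them lay above (against 14.9%) and 16 below (30.8%, against 14.0%). Their median difference was 0.15 within replicate 1, close to the 0.14 of all genes. Within replicate 2 it was -0.05, below the 0.08 of all genes. For Rps7 and Rpl38, the ribosomal members of smallest p, the differences became -0.07 and -0.12 when near-identical copies were summed. The other members were not searched for copies, and the part of copies in these counts was not tested. Against norepinephrine 27 of the 44 respiratory chain genes were lower with BAFF.

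Stress pathways showed no called gene against saline. The integrated stress response held 0 of 26 (median 0.11). With BAFF 12 were higher and 2 lower than with LPS, against 3.75% and 2.81% of all genes. Compared with norepinephrine 9 were higher and 1 lower, against 1.9% and 2.86% of all genes. Protein folding and degradation in the endoplasmic reticulum held 0 of 24 (median 0.07), with 15 higher than with norepinephrine. Hspa5, the main chaperone of that compartment, measured 1089 and 1031 TPM with BAFF, 1070 and 1002 TPM with saline, 539 and 714 TPM with LPS, and 314 and 392 TPM with norepinephrine. The counts were 0 of 22 for cytosolic heat-shock chaperones (median 0.09), 0 of 20 for p53 targets (0.11), 0 of 23 for NRF2 targets and metallothioneins (0.07) and 0 of 31 for proteasome subunits (0.08).

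The remaining signalling and structural lists were read in the same way. Of 12 BCL2-family survival and death genes, through which BAFF protects B lymphocytes, 0 were called (median 0.08), and Bcl2l1, the survival factor BCL-XL, measured 15.3 and 13.9 TPM with BAFF and 13.1 and 14.0 TPM with saline. Of 24 AP-1 and immediate-early genes, 0 were called (median 0.15), with 12 above saline without overlap (50%, against 41.9% of all genes), or 8 after median-ratio scaling (33.3%, against 14.9% of all genes). Ier2, one of these, measured 14.3 and 14.0 TPM with BAFF and 11.8 and 11.9 TPM with saline. Of 17 clock genes, 0 were called (median 0.14), with 11 above saline without overlap (64.7%, against 41.9%), or 6 after median-ratio scaling (35.3%, against 14.9%). Per3, a repressor of the clock, measured 14.7 and 14.5 TPM with BAFF and 12.7 and 12.6 TPM with saline. Collagens and matrix held 0 of 42 (median 0.14), TGF-beta and BMP targets 0 of 22 (0.15), Wnt ligands and antagonists 0 of 13 (0.06), and cell cycle and DNA replication 0 of 40 (0.13). Col4a2, a basement membrane collagen chain, measured 314 and 309 TPM with BAFF and 268 and 259 TPM with saline (0.24, adjusted p = 0.84). The lists of cholesterol synthesis and efflux (0 of 21, median 0.08), cAMP and CREB targets (0 of 18, 0.08), glucocorticoid targets (0 of 15, 0.08) and histones (0 of 12, 0.07) also held no called gene.

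Markers of macrophages and muscle differed between replicate 1 and replicate 2 within both groups. Summed macrophage markers were 1954 TPM in replicate 1 and 1046 TPM in replicate 2 with BAFF, and 2187 and 916 TPM with saline. C1qa, a complement component of macrophages, measured 39.4 and 11.9 TPM with BAFF and 47.8 and 10.9 TPM with saline, and Lyz2, their lysozyme, 841 and 359 TPM against 1018 and 312 TPM. Replicate 1 was thus the higher library in both groups, as it was with LPS and norepinephrine. Skeletal muscle markers went the other way, with sums of 38.3 and 165 TPM with BAFF and 27.1 and 208 TPM with saline. Mylpf, a fast myosin light chain, measured 12.5 and 57.0 TPM with BAFF and 5.94 and 79.4 TPM with saline. In these bulk samples fewer cells of a type and less RNA per cell cannot be told apart. Between BAFF and saline, 0 of 15 macrophage markers (median 0.04) and 0 of 12 muscle markers (median 0.00) were called, but the intervals lay within 2-fold for only 1 of 15 and 0 of 12. Within replicate 1 the macrophage list had a median of -0.20, against 0.14 over all genes, and within replicate 2 of 0.20, against 0.08. The part of these cells in the differences above was not tested. Preadipocyte and fibroblast markers held 0 called of 13 (median 0.16), with Pdgfra, a receptor of adipocyte precursors, at 84.4 and 74.3 TPM with BAFF and 70.3 and 66.1 TPM with saline.

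**Figure D5:**
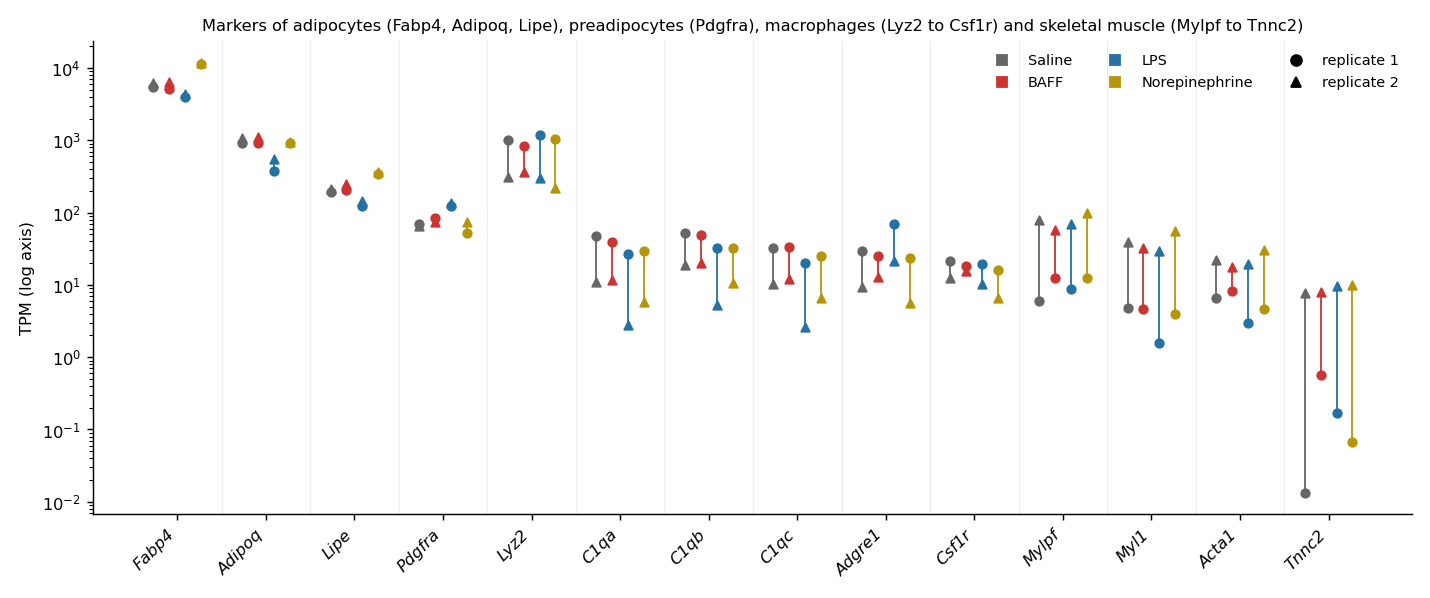
TPM in each library (y axis, log scale) for markers of adipocytes (Fabp4, Adipoq, Lipe), preadipocytes (Pdgfra), macrophages (Lyz2, C1qa, C1qb, C1qc, Adgre1, Csf1r) and skeletal muscle (Mylpf, Myl1, Acta1, Tnnc2); circles are replicate 1 and triangles replicate 2. Replicate 1 is higher for every macrophage gene shown and replicate 2 for every muscle gene shown, in all 4 groups.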

How the data were processed

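RNA from the cultures was sequenced from TruSeq libraries, per the labels' protocols. The deposited files hold TPM per Ensembl gene, made by the authors with kallisto (version not given) on mm10, per the submitters' processing notes; the annotation release and how transcripts were summed to genes are not given in the sources used here. Of 28987 identifiers, 27475 matched GENCODE M21. Genes with at least 1 TPM in 2 or more of the 4 BAFF and saline libraries entered a limma fit (limma 3.58.1, R 4.3.3) of log2(TPM + 1) with 8 libraries, group means and a mean-variance trend. P-values were adjusted by Benjamini-Hochberg over 13185 genes. The procedure was tested on simulated data.

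Members and gene lists were chosen with earlier results of these data known. The text names 10 genes of smallest p in each direction (mean of at least 5 TPM, groups not overlapping, no unnamed gene model or pseudogene), and the ligands and receptors. Up to 3 members of smallest p per list could be named, and not all of these are. Other genes are named for their known roles, or as said, after their values were seen. Near-identical copies were found with BLAST 2.17.0 (at least 95% identity over at least 150 bases), and figures drawn with matplotlib 3.10.9 in Python 3.11.15. Alternatives changed the filter, pseudocount, scaling, trend, block and libraries.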

Additional observations from a re-analysis of the deposited data

How the results depend on the processing

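No result changed sign past its threshold under any alternative run. The counts of genes called against saline, 0 higher and 2 lower, became 5 and 7 without a filter on low values, and 0 lower with a pseudocount of 0.1 or with the 4 compared libraries alone. Leaving out 1 library at a time gave 0 to 1 higher and 0 to 2 lower; the 1 higher gene appeared without either norepinephrine library, and 0 were lower without any BAFF, saline or LPS library. Several alternatives were chosen after seeing the data: leaving out both norepinephrine libraries (1 higher, 2 lower), leaving out each LPS or norepinephrine library, summing near-identical copies (0 higher, 1 lower), and the 4 libraries alone with a replicate block (0 higher, 2 lower). The 1 lower call after summing copies was ENSMUSG00000080830, which carries the values of Gm7336. It has no entry in the annotation, so it was not summed with Gapdh and its copies. The 866 calls between BAFF and LPS became 433 with all 10 libraries, and 157 to 963 when 1 library was left out. The 627 calls between BAFF and norepinephrine became 320 without the filter, 37 with all 10 libraries, 395 without the mean-variance trend, and 13 to 947 when 1 library was left out. The cause was not tested.

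The replicate numbers are shared by all groups, but no label says that a number marks a shared animal or day, and there are 2 numbers only. The differences between replicates 1 and 2 correlated across genes between BAFF and saline (r = 0.365) and between the other pairs of groups (r = 0.309 to 0.523). With the number as a replicate block, the calls were 0 higher and 2 lower against saline, 1759 against LPS and 1788 against norepinephrine.

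Depth is unknown, so counting error at low TPM could not be given. With 2 libraries per group the median 95% interval reached 0.33 (log2) to either side, or 1.26-fold of TPM + 1, without adjustment for the number of genes. Calls at the adjusted threshold needed larger differences: 1.46 for Ryk and 2.11 for Gm14401 did not pass (limma adjusted p = 0.57 and 0.19). A list with 0 called genes therefore does not exclude differences above 1.26-fold.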

Other observations

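Endothelial markers held 0 called genes of 9 tested between BAFF and saline (median 0.09, against 0.11 over all genes). Egfl7, a protein secreted by endothelial cells, measured 25.6 and 29.2 TPM with BAFF and 21.3 and 21.6 TPM with saline, without overlap, while Pecam1 measured 6.72 and 6.00 TPM with BAFF and 4.57 and 6.86 TPM with saline, with overlap. Smooth muscle and pericyte markers held 0 of 10 (median 0.06).

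The saline libraries lay outside the range of all 6 treated libraries for 1099 of 13185 genes (8.34%; 110 above and 989 below), as for Zhx2 and Ryk. The same count was 1638 for the BAFF libraries against the 6 others (12.4%), with 1577 above and 61 below. It was 3176 for LPS (24.1%), with 1172 above and 2004 below, and 3345 for norepinephrine (25.4%), with 1986 above and 1359 below. The directions for BAFF and saline follow the upward tilt of BAFF described above, which moved with scaling. These counts were not repeated after median-ratio scaling.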
